A study of Homo sapiens with 6 samples.

Results

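Formins are the proteins that start and lengthen unbranched actin filaments, and 10 genes of this family were described here in OE19 cells: FMNL1, FMNL2, FMNL3, DIAPH1, DIAPH2, DIAPH3, DAAM1, INF2, FHOD1 and FHDC1. They were taken by gene symbol from a table of 13345 genes, and all 10 had a row. The family was chosen because FMNL2 had a lower value in every inhibitor sample than in any control sample, so the members were chosen by measured values of the inhibitor against control contrast, and those values are given as a description, with no test. OE19 is an established line derived from an oesophageal adenocarcinoma. In 3 samples the cells had received a miRCURY LNA Power inhibitor against miR-451a, and in the other 3 samples Negative Control A of the same chemistry, before messenger RNA was sequenced. The column headers number 3 experiments, each with 1 control and 1 inhibitor sample. Whether the cells of these libraries were also irradiated is not stated. All samples came from 1 cell line, so nothing here extends to other lines, and the p-values of the whole table measure only the spread between these samples.

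A formin carries a proline-rich region that takes up actin bound to profilin and a ring-forming region that stays on the growing end of the filament. Many formins are held closed by contact between their own ends until a signal opens them. The filaments they build form filopodia, the lamellipodial edge, stress fibres and the cytokinetic ring, and in epithelial cells they also support cell to cell contacts. Actin polymerisation by formins draws on the pool of free actin, and through that pool it acts on the transcription factor SRF and its cofactors of the MRTF family.

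The values are gene counts that the authors adjusted for GC content and gene length and then scaled between samples, called normalised values here. The adjusted counts summed to between 14084387 and 18726440 per sample. Across 12661 genes with a known exon length the mean normalised value and the length had a Spearman correlation of 0.03, a description across genes, so levels are compared between genes on this length-adjusted scale. Inhibitor sample 3 stood apart. It lay over 2-fold away from the other samples' median in 1388 of 11095 genes whose mean reached 50, against 65 to 219 genes in each other sample. Of 12 epithelial adenocarcinoma markers 11 were measured, EPCAM and KRT8 among them with mean control values of 14338 and 51366. Of 12 mesenchymal markers 4 were measured and VIM had a mean control value of 7.70, and of 12 blood cell markers 4 were measured. The markers not measured, KRT20 and PTPRC among them, were not analysed here.

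The level of a formin was not used in choosing the family. INF2, which both builds and severs filaments and lies in part on the endoplasmic reticulum, had the highest values, with a mean over the 6 samples of 3639 and a range from 3121 to 4229.7. DIAPH1, a diaphanous formin, followed at 2924 (2486 to 3169.6). INF2 was above DIAPH1 in 5 of 6 samples, and their ranges overlapped. These genes together held 70.5% to 76.1% of the summed value of the 10 formins in a sample. They stood at mean percentiles of 95.2 and 93.5 among all genes of a sample.

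DIAPH3, a diaphanous formin linked to filopodia and cell division, had a mean of 682 (524 to 881), and FHOD1, a formin of stress fibres, had 546 (494 to 578). Their ranges overlapped each other and did not overlap those of the genes above or below. DAAM1, which binds Dishevelled of the Wnt pathway, had a mean of 333 (299 to 406), and FMNL2, a formin of lamellipodia and filopodia, had 306 (245 to 378). FMNL1, known best from leukocytes, had 213 (141 to 414). FHDC1, a formin that also binds microtubules, had 101 (55.5 to 254), and FMNL3, known from filopodia and cell contacts, had 90.1 (64.0 to 110.0). From DAAM1 down to FMNL3 each range overlapped the next, although FMNL1 was above FHDC1 in 6 of 6 samples.

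DIAPH2, the remaining diaphanous formin, had the lowest values, from 4.13 to 9.34, which rested on 4 to 9 adjusted counts. It did not overlap any other member, and it was the only 1 of the 10 below the filter of a mean value of 10. The diaphanous genes therefore covered nearly the whole span of the family, with DIAPH1 near the top and DIAPH2 at the bottom. By percentile rank among all genes of a sample the order of all 10 genes was the same.

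**Figure D1:**
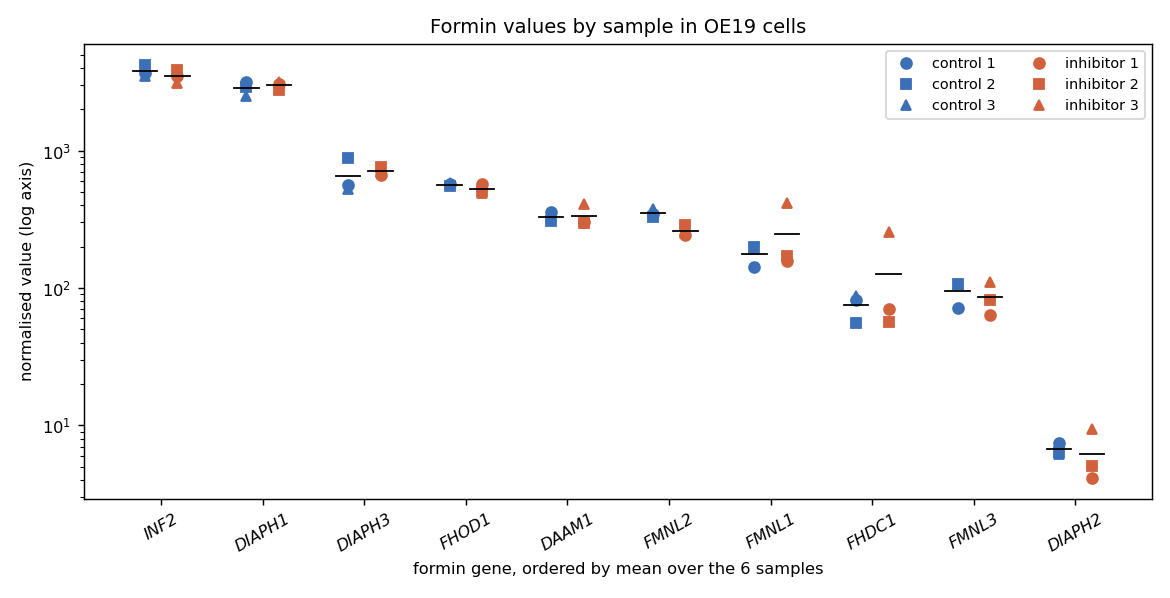
Normalised values of the 10 formins on a log axis, 1 point per sample (blue, control; orange, inhibitor; the symbol gives the experiment), with black lines at group means of 3 samples. INF2 and DIAPH1 sit at 2486 or above, DIAPH2 sits below 10, the inhibitor points of FMNL2 lie below its control points, and inhibitor sample 3 is the high point of FMNL1 and FHDC1.

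FMNL2 (ENSG00000157827.19; GRCh38 chromosome 2, 152335174 to 152649826 in RefSeq) is the gene on which the choice of the family rested. Its protein is anchored to the membrane by a lipid group. The value of FMNL2 was 344, 329 and 378 in control samples 1, 2 and 3, and 245, 286 and 251 in inhibitor samples 1, 2 and 3. The groups did not overlap, and the margin between them ran from the lowest control value of 329 to the highest inhibitor value of 286. The control mean was 350.4 ± 25.3 (SD, n = 3) and the inhibitor mean 260.7 ± 22.5 (SD, n = 3), a ratio of 0.744. The log2 difference, inhibitor minus control, was -0.43 ± 0.14 (SE).

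FMNL2 was lower with the inhibitor in each of the 3 experiments, by log2 differences of -0.49, -0.20 and -0.59 in experiments 1, 2 and 3. The smallest of these was in experiment 2. The percentile of FMNL2 among all genes was 45.7 to 48.6 in control and 39.3 to 42.2 in inhibitor samples. This position restates the values that chose the family and adds nothing to them. The coefficient of variation was 7.22% over the control and 8.61% over the inhibitor samples. Counting alone would give 5.24% and 6.27% if the mean adjusted counts were reads, which they are not. Without inhibitor sample 3 the log2 difference was -0.40. Since groups without overlap chose the family, the sign in each experiment and with any sample left out was fixed by that choice.

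FMNL2 was the only 1 of the 9 formins above the filter whose groups did not overlap. Over all 12723 genes tested, 2.9% did not overlap with lower inhibitor values, 2.71% with higher values and 5.61% in either direction, and nothing is read from the count in the formins, since this contrast chose them. FHOD1 had 569, 552 and 578 in control and 573, 509 and 494 in inhibitor samples. Here inhibitor sample 1 lay inside the control range, and the other inhibitor samples lay below it. FHOD1 had the smallest spread of the family, 2.30% over the control samples, and a log2 difference of -0.11 ± 0.12 (SE).

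FMNL1 (ENSG00000184922.13; GRCh38 chromosome 17, 45221885 to 45247318) is a paralogue of FMNL2. The value of FMNL1 was 141, 199 and 193 in the control samples and 157, 172 and 414 in the inhibitor samples. Inhibitor samples 1 and 2 lay inside the control range, and inhibitor sample 3 was 2.41 times the median of the other samples. The log2 difference was 0.35 ± 0.38 (SE), smaller than its error, and it was -0.10 without inhibitor sample 3.

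FHDC1 (ENSG00000137460.8; GRCh38 chromosome 4, 152911339 to 152979671) had the same high sample. Its value was 81.2, 55.5 and 87.9 in the control samples and 70.2, 56.7 and 254 in the inhibitor samples. Inhibitor sample 3 was 3.62 times the median of the others. The log2 difference of FHDC1 was 0.45 ± 0.55 (SE) and -0.22 without inhibitor sample 3. In the other samples these genes did not go together, since control sample 2 held the highest of the FMNL1 values and the lowest of the FHDC1 values.

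FMNL1 and FHDC1 were the 2 of 9 formins above the filter that exceeded the median of the other samples by more than 2-fold in inhibitor sample 3, as did 8.74% of all genes tested. Markers of other cells also had their highest value there in part. LCP1, a leukocyte actin-bundling gene, was at 60.2 in inhibitor sample 3 and between 0 and 4.27 elsewhere, and VIM was at 32.2 there against at most 11.5 elsewhere. Of the blood cell list, 4 of 12 genes were measured, with summed values of 17046 to 18233 in control and 17283 to 20185 in inhibitor samples, nearly all of it from LYZ. The summed mesenchymal list, with 4 of 12 genes measured, was 424 to 442 in control and 395 to 468 in inhibitor samples. Their part in the FMNL1 and FHDC1 values was not tested. In these bulk samples more cells of a type and more RNA per cell cannot be told apart.

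FMNL3, the other paralogue of FMNL2, had values of 71.4, 107 and 106 in the control samples and 64.0, 82.0 and 110.0 in the inhibitor samples. The groups overlapped throughout, with a log2 difference of -0.16 ± 0.29 (SE) that became 0.03 when inhibitor sample 1 was left out and -0.36 when inhibitor sample 3 was. FMNL2 made up 51.9% to 61.8% of the summed FMNL values in the control samples, and 52.5%, 53.0% and 32.4% in the inhibitor samples. The FMNL2 share in inhibitor samples 1 and 2 was thus inside the control range, and the ratio of FMNL2 to FMNL1 was below 1, at 0.607, in inhibitor sample 3 alone.

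**Figure D2:**
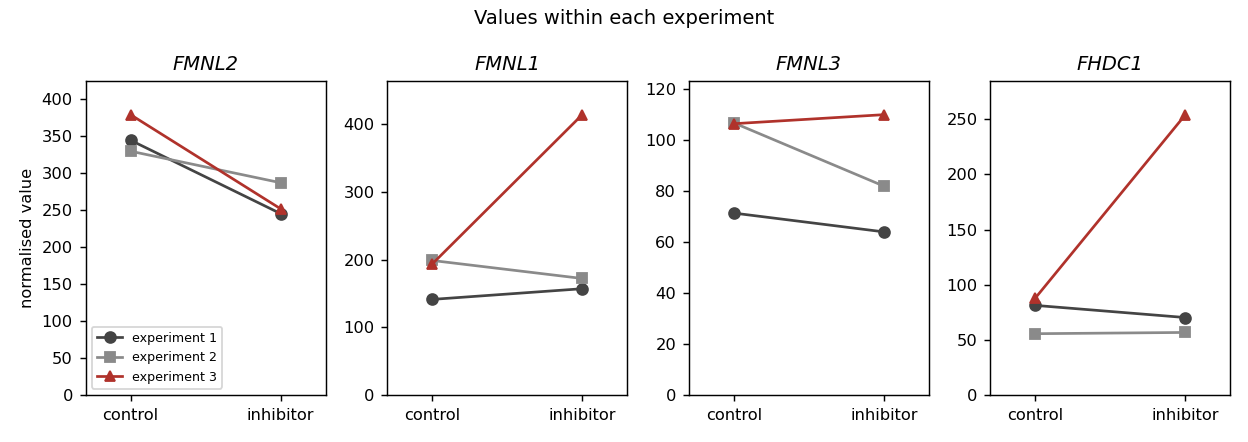
Normalised values of FMNL2, FMNL1, FMNL3 and FHDC1 in control and inhibitor samples, with 1 line per experiment (red, experiment 3); each vertical axis starts at 0. All 3 FMNL2 lines go down, by log2 differences of -0.49, -0.20 and -0.59, whereas only the experiment 3 lines of FMNL1 and FHDC1 go up steeply, to 414 and 254.

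The promoter windows of FMNL2 and FMNL1 are shown because these paralogues differed in pattern, FMNL2 being lower in all inhibitor samples and FMNL1 higher in inhibitor sample 3 alone. Each window, from RefSeq (GRCh38.p14), runs from 250 bases before to 50 bases after the gene start, 5′ to 3′ on the gene's own strand, and capitals mark the GC box GGGCGG or its reverse complement CCGCCC.
FMNL2 (chr2:152334924-152335223, plus strand): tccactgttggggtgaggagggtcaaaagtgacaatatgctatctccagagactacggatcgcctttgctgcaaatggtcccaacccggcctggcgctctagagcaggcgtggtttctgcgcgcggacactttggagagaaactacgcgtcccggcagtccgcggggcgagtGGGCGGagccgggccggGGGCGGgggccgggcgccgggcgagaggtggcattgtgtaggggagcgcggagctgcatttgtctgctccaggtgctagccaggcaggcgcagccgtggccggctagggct
FMNL1 (chr17:45221635-45221934, plus strand): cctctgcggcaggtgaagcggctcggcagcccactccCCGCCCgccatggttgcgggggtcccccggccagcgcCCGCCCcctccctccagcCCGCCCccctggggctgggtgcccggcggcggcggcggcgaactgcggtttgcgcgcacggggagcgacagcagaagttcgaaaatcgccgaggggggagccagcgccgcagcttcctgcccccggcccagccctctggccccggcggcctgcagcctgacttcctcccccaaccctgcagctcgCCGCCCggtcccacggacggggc
The FMNL2 window held 2 GC boxes and the FMNL1 window 4, at a GC content of 66.3% and 77.7%. The window of FMNL3, not shown, also held 4, at 78.3%. Nothing about expression is read from these counts. Among 35116 RefSeq windows of this length, 45% held a GC box and the median GC content was 58.7%. All 10 formins matched, with 16 windows. None of the 16 held TATAAA, as 11.5% of all windows did, or the CArG box bound by SRF, as 1.29% did, both strands searched. At such low shares nothing is read from the absence. The E-box CACGTG was in 1 window each of DIAPH1, INF2 and DIAPH2, and in 7.26% of all windows. A motif match is a description of letters and not a binding site.

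Among the diaphanous formins, DIAPH1 had values of 3152, 2913 and 2486 in the control samples and 3055, 2771 and 3169.6 in the inhibitor samples. The groups overlapped, and the log2 difference was 0.08 ± 0.14 (SE). DIAPH3 had 565, 881 and 524 in the control samples and 667, 762 and 695 in the inhibitor samples. The inhibitor samples all lay inside the control range, which control sample 2 set at its upper end. The log2 difference of DIAPH3 was 0.15 ± 0.21 (SE), and it was 0.38 without control sample 2 and 0.00 without control sample 3.

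The counting error of DIAPH1, computed as if its mean adjusted count in the control samples were reads, was 1.83%. Its spread over those samples was 11.8%. For DIAPH3 these were 3.85% and 29.8%. For DIAPH2 the computed error was 37.8%, more than the measured 9.48% over the control samples. Adjusted counts are not reads, so the part of counting in these spreads was not tested. No difference is read for DIAPH2 from so few adjusted counts. DIAPH2 had 7.38, 6.41 and 6.20 in the control samples and 4.13, 5.06 and 9.34 in the inhibitor samples, and the groups overlapped.

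INF2 had values of 3655, 4229.7 and 3484 in the control samples and 3510.1, 3834 and 3121 in the inhibitor samples. Like FMNL2, it was lower with the inhibitor in every experiment, by -0.06, -0.14 and -0.16 on the log2 scale. That pattern held in 12.2% of all genes tested. The difference of -0.12 ± 0.15 (SE) was within the error. DAAM1 had 354, 308 and 327 in the control samples and 302, 299 and 406 in the inhibitor samples, so its inhibitor samples lay on both sides of the control range. Its log2 difference was 0.01 ± 0.17 (SE), and -0.13 without inhibitor sample 3.

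Of the 9 formins above the filter, 5 had a log2 difference above 0 and 4 below 0, with a median of 0.01. Over all genes tested the median was 0.00 and 50.6% of genes were below 0. Without inhibitor sample 3 the count was 2 of 9 above 0 and the median of the formins was -0.10, with FMNL1, FHDC1 and DAAM1 below 0 and DIAPH1 and DIAPH3 above it. The summed value of the 10 formins was 8170.5 to 9579.8 in the control and 8647 to 8925 in the inhibitor samples, so the total of the family stayed inside the control range. No gene passed an adjusted p of 0.05 with limma (Benjamini-Hochberg) over all genes tested, that is 0% of 12723, and 119 (0.935%) had an unadjusted p below 0.05, of which 0.534% of all genes were lower and 0.401% higher with the inhibitor. DESeq2 and edgeR, run on recovered whole numbers, gave 0 genes after adjustment and 250 and 163 genes at an unadjusted p below 0.05.

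**Figure D3:**
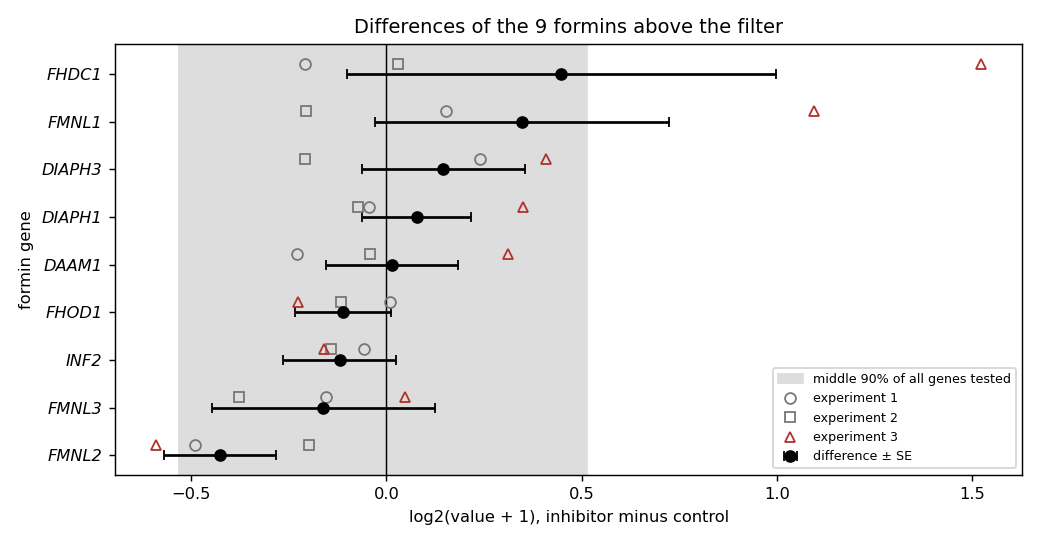
Log2(value + 1) of inhibitor minus control for the 9 formins above the filter, with black points and bars for the difference ± SE (3 samples each) and open symbols for single experiments. The grey band holds the middle 90% of all genes tested, from -0.53 to 0.51. Every mean difference of a formin lies inside the band, with FMNL2 lowest at -0.43 and FHDC1 highest at 0.45, and the experiment 3 symbols of FHDC1 and FMNL1 lie far to the right at 1.52 and 1.095.

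The other formins of the table were FMN1, DAAM2, FHOD3 and GRID2IP, chosen after the table had been seen. FMN1, a formin of epithelial cell contacts, had values of 607, 523 and 736 in the control and 444, 537 and 788 in the inhibitor samples, a level near that of FHOD1. DAAM2, the paralogue of DAAM1, had 246, 236 and 191 in the control and 251, 247 and 114 in the inhibitor samples, so that inhibitor sample 3 was the low point, at 0.464 of the median of the others. DAAM1 was highest in that sample. GRID2IP, a formin known from Purkinje cells, had 42.7, 52.3 and 54.8 in the control and 44.4, 36.4 and 86.1 in the inhibitor samples, and FHOD3, a formin of heart muscle, ranged from 2.07 to 29.5. The groups overlapped for all 4 of these genes. FMN2 was not analysed here.

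The genes whose values were most like those of FMNL2 over the 6 samples were EDEM1, FAM135A, TOB1, INTS2 and APC, with Pearson correlations of log2(value + 1) of 0.996, 0.974, 0.962, 0.960 and 0.959 among 11094 genes compared. These are measures of likeness over 6 samples that share the same libraries. EDEM1, which acts in disposal of misfolded proteins from the endoplasmic reticulum, had 439.8, 429 and 479.6 in control and 363, 398 and 367 in inhibitor samples. APC, a tumour suppressor that also nucleates actin and binds diaphanous formins, had 389, 388 and 445 in control and 325, 356 and 298 in inhibitor samples. In both genes the groups did not overlap, which is no separate result, since likeness to FMNL2 picked them. APC had a log2 difference of -0.32 ± 0.14 (SE), a description for the same reason. The limma adjusted p of APC over all genes tested was 0.899.

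The rest of the actin pathway was described through 5 lists of 78 tested genes. None of the 78 passed an adjusted p of 0.05 with limma, DESeq2 or edgeR, and none had an unadjusted p below 0.05 with any of them. The smallest adjusted p of the 78 was 0.899, 0.974 and 0.891 with these tools. Over all 12723 genes tested, 0% passed after adjustment with any of them. At an unadjusted p below 0.05 there were 119 (0.935%) with limma, 250 with DESeq2 and 163 with edgeR. At such low shares nothing about these lists is read from the absence. The values below are therefore differences that did not pass, and of each list the extremes are those among genes whose mean value reached 50.

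Of 17 partners of formins, 8 were above 0 and 9 below 0, with a median of 0.00. IQGAP1, a scaffold of the cell cortex that binds DIAPH1, had 20479, 18573 and 18012 in control and 21746, 18437 and 43472 in inhibitor samples, and its log2 difference of 0.45 ± 0.35 (SE) was 0.08 without inhibitor sample 3. PRKCA, a kinase that phosphorylates FMNL2, had 1291, 1358 and 1600.0 in control and 1115, 1315 and 546 in inhibitor samples, and its difference of -0.60 ± 0.31 (SE) was -0.22 without inhibitor sample 3. BAIAP2, a membrane-bending partner of formins, had a difference of 0.40 ± 0.24 (SE), or 0.22 without that sample, and ROCK2, a kinase that raises myosin contractility, -0.22 ± 0.16 (SE). The profilin gene PFN1 ranged from 4391 to 6065 in control and from 4685 to 5518 in inhibitor samples.

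Of 14 genes of actin and its monomer pool, 12 were above 0, with a median of 0.17 that was 0.10 without inhibitor sample 3. GSN, which severs filaments, had a difference of 0.38 ± 0.22 (SE), or 0.26 without inhibitor sample 3. DSTN, which depolymerises filaments, had 0.37 ± 0.47 (SE), and this turned to -0.07 without inhibitor sample 3, where its value was 109616 against 35208 to 54039 elsewhere. ACTB had -0.11 ± 0.22 (SE), which turned to 0.06 without that sample, and CFL2 of the cofilin family had 0.06 ± 0.26 (SE), which turned to -0.11 without control sample 3. Of 17 genes of the SRF and MRTF list, 15 were above 0 with a median of 0.19, and 14 of 17 with a median of 0.11 without inhibitor sample 3. Their summed value overlapped between groups, at 54352 to 101502 in control and 68276 to 119854 in inhibitor samples. Over all genes tested 50.6% were below 0. The genes of a list share the same libraries, so nothing is read from the sign counts of these lists. FLNA, an actin cross-linker, had values of 37636, 26667 and 17005 in control and 40488, 25652 and 59336 in inhibitor samples, which overlapped. Its difference of 0.62 ± 0.42 (SE) was 0.32 without inhibitor sample 3 and also 0.32 without control sample 3. TPM1 had a difference of 0.46 ± 0.29 (SE), or 0.28 without control sample 3 and 0.29 without inhibitor sample 1. FHL2 had -0.03 ± 0.18 (SE), which turned to 0.14 without inhibitor sample 3 and to 0.01 without control sample 1. MRTFB, itself a cofactor of SRF, had -0.34 ± 0.18 (SE), or -0.18 without inhibitor sample 1. Its groups did not overlap, as in 2.9% of all genes tested with lower inhibitor values.

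Of 20 genes of the Arp2/3 complex, which builds branched actin, and its activators, 9 were above 0 and 11 below 0, with a median of -0.02. WASF2 and WASF1, paralogues that activate the complex, stood at opposite ends with 0.63 ± 0.51 (SE) and -1.004 ± 0.44 (SE). WASF2 had values of 2067, 1917 and 1428 in control and 1711, 1769 and 6899.7 in inhibitor samples, and its difference turned to -0.03 without inhibitor sample 3. WASF1 had values of 87.8, 115 and 170 in control and 51.6, 110 and 36.3 in inhibitor samples, and the groups overlapped, with a difference of -0.66 without inhibitor sample 3. ARPC5 had a difference of 0.48 ± 0.39 (SE), or 0.03 without inhibitor sample 1, and WASF3 had one of -0.35 ± 0.24 (SE). WASF3 was 1 of 2 genes of this list whose groups did not overlap with lower inhibitor values. For 1 gene they did not overlap with higher values. Of 10 other nucleators and elongators, 6 were above 0 with a median of 0.07. COBLL1 had 0.48 ± 0.35 (SE), or 0.06 without inhibitor sample 3, where its value was 1814 against 617 to 880.4 elsewhere. SPIRE1 had 0.26 ± 0.47 (SE), which turned to -0.27 without inhibitor sample 3 and to -0.02 without control sample 2. ENAH had -0.34 ± 0.43 (SE), which turned to 0.14 without inhibitor sample 3.

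**Figure D4:**
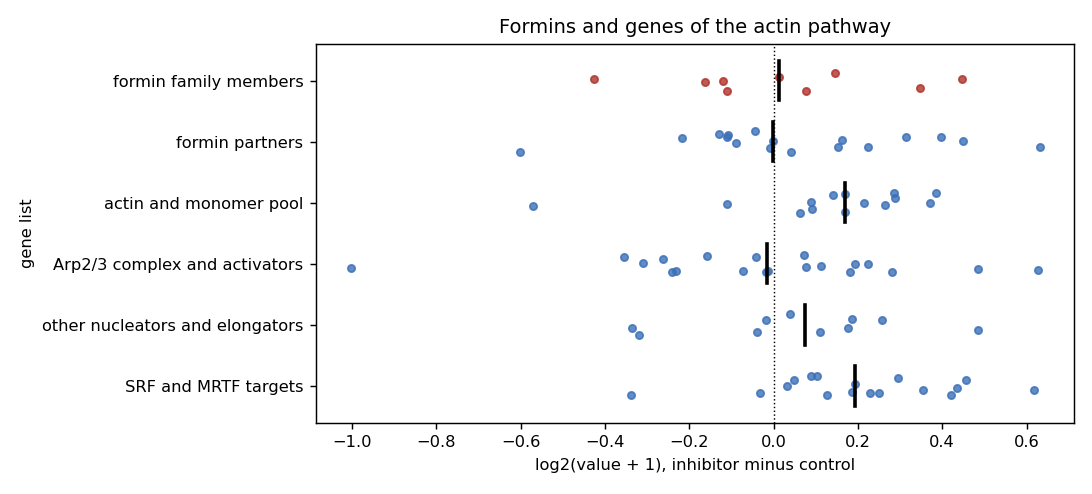
Log2(value + 1) of inhibitor minus control for each tested gene of the formin family (red) and of 5 lists of the actin pathway (blue), with black bars at list medians. The medians run from -0.02 for the Arp2/3 list to 0.19 for the SRF and MRTF list, the formin median is 0.01, and WASF1 is the lowest point at -1.004.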

How the data were processed

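Messenger RNA of 6 OE19 samples, 3 control and 3 inhibitor, was analysed. Groups and sample numbers were taken from the sample titles, and the reading of these numbers as experiments from the column headers. The submitters' processing notes name cutadapt 1.8, FastQC 0.11.8, STAR 2.7.0f and the GRCh38 build. Per the methods, the authors corrected counts inside each sample for GC and length bias (EDASeq) and then scaled the samples to each other (DESeq2). Which tool counted reads is not given in the sources used here. As deposited, the values are thus a normalised signal per gene, not raw counts, and the adjustment can change fold changes between genes. Dividing each column by its smallest value above 0 gave whole numbers for 100% of values within 1e-06.

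The filter of a mean value of 10 kept 12723 of 13345 genes, and limma 3.58.1 in R 4.3.3 was fitted to their log2(value + 1) (eBayes with trend, two-sided, Benjamini-Hochberg, threshold 0.05). Fold changes on this scale understate those of low genes. The study's Mann-Whitney test cannot go below 0.1 two-sided with 3 against 3 samples and was an alternative, as were edgeR 4.0.16 and DESeq2 1.42.0 on the recovered whole numbers, other pseudocounts, filters, TMM rescaling, each sample left out and the experiment number as a replicate block. The numbers in the column headers name experiments and were read as a pairing, and the deviations of same-numbered samples correlated at 0.21, 0.15 and -0.00 across genes. The method was tested on simulated counts.

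The members and lists were chosen with earlier results of these data known, and 1 further list is not reported here. Of each of the 5 actin pathway lists the 2 largest and the 2 lowest differences were named, given a mean value of 50 or more. The 5 genes most like FMNL2 were also named. For the marker lists this rule was not followed, and single genes were named. Counting errors cover counting only and were computed from adjusted counts, which are not reads. Coordinates and promoters came from RefSeq by symbol, and exon lengths from GENCODE lifted to GRCh37.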

Additional observations from a re-analysis of the deposited data

How the results depend on the processing

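No gene passed an adjusted p of 0.05 under any of the 15 alternatives run, from limma with other settings to DESeq2, edgeR and the exact Mann-Whitney test, whose smallest p was 0.1. At an unadjusted p below 0.05 the count of 119 was 76 with a mean value of at least 50, 181 without a trend in the variance prior, 250 with DESeq2 (180 higher with the inhibitor, against 51 of 119), 1360 without inhibitor sample 2, 63 without control sample 2 and 42 without control sample 3. The cause was not tested. With the experiment as a replicate block it was 128, with 0 genes after adjustment, and the block changed no call. The log2 difference of FMNL2 was -0.495 to -0.369 with 1 sample left out, with a sign that the choice of the family fixed. All 126 values of the formins under the alternatives were within 1 SD of the spread between replicates. For many of these values that bound could not fail, so no stability is read from it. With 3 samples per group, leaving 1 out cannot shift a difference by that SD. The replicate block, the variance prior and the filters leave the difference of a gene unchanged. Of the 126 values, 6 had the other sign, each with 1 sample left out. The formin median ranged from -0.0958 to 0.0905 with 1 sample left out. It was -0.0488 with DIAPH2 included when no filter was used. DIAPH2 rested on 4 to 9 adjusted counts, which are not raw reads, so its read depth is not known here.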
